A study of Mus musculus with 22 samples.

Results

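The genes described here are 7 transcription factors that pattern the limb along its proximal-distal axis, from the shoulder to the digits: Meis1, Meis2, Irx3, Irx5, Sall1, Sall3 and Sall4. They were chosen by name, and a probe counted as theirs if its gene name or its RefSeq accession was one of these genes. All 7 genes were on the array, through 12 of its 41174 probes, and 6 of the 7 passed the filter on dim probes that left 18624 genes and unnamed probes for testing. The gene that did not pass was Irx3.

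The samples were forelimbs of mouse embryos at embryonic day 13.5, of strain 129 as labelled, from 13 Chsy1 knockout and 9 wild-type samples. Chsy1 codes for chondroitin sulfate synthase 1, which lengthens the sugar chains that proteoglycans carry in the matrix between cells. The labels give no other allele or treatment for either group, and do not say which part of the gene was altered or whether a sample was 1 embryo or a pool. They are described as biological replicates, and every p-value rests on the spread among them alone. RNA of each forelimb sample was labelled with Cy5 and hybridised against 1 Cy3-labelled universal mouse reference RNA on a 2-colour oligonucleotide array. Every value below is therefore a log2 ratio of forelimb over reference, no dyes were swapped, and no probe's level can be set against another probe's.

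Meis1 and Meis2 are homeodomain proteins of the TALE class that bind DNA together with Pbx partners. In the early limb bud they mark the proximal part, and work in chick and mouse links their expression to retinoic acid, which favours it, and to FGF signals from the distal ridge, which oppose it. Irx3 and Irx5 are TALE homeodomain proteins of the Iroquois family, and mouse hindlimbs that lose both lack proximal and anterior skeletal elements. Sall1, Sall3 and Sall4 are zinc finger proteins. Sall1 and Sall3 act in the distal limb, where the hand plate forms, and in humans SALL1 and SALL4 mutations cause syndromes with malformed thumbs or forearms. The comparison of the genotypes asks whether forelimbs without Chsy1 hold different amounts of these transcripts.

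Promoter windows in RefSeq's GRCm38.p6 table ran from 250 bases before to 50 bases after an annotated start. Those of 4 of the 7 genes were searched, 6 windows in all, and this count does not show which genes lack a window. The windows of Meis1 and Meis2 are shown because these paralogues are the proximal pair, and 1 of the 3 windows of Sall1, the one with a motif match, because Sall1 varied together with other Sall probes across the arrays. Each reads from 5′ to 3′ on the gene's minus strand, and capitals mark matches on either strand to TATAAA (the TATA box) or CCAAT (the CCAAT box, which reads ATTGG where it lies on the other strand).
Meis1, GRCm38.p6, chr11:19018920-19019219: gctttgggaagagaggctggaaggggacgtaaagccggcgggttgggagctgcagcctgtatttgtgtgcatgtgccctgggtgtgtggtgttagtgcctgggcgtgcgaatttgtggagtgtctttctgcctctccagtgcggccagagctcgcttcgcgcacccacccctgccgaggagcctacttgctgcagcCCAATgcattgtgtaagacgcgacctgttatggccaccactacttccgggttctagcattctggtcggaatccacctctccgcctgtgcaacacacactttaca
Meis2, GRCm38.p6, chr2:116064570-116064869: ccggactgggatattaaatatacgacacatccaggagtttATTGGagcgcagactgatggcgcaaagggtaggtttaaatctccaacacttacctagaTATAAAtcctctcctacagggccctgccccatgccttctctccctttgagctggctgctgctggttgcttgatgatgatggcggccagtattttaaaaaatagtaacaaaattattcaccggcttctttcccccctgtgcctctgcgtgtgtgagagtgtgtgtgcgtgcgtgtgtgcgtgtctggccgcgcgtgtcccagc
Sall1, GRCm38.p6, chr8:89044113-89044412: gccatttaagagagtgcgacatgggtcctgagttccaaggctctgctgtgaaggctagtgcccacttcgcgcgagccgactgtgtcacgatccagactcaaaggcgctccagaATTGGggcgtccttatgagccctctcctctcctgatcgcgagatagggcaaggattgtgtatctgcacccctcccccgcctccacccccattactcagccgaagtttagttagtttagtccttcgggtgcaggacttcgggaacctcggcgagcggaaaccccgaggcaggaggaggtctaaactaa

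The CCAAT match began 54 bases before the start of Meis1, 210 bases before that of Meis2 and 137 bases before that of Sall1, and 37.4% of the 32851 windows in the table held such a match. The TATAAA match of Meis2 began 152 bases before its start, and 13.6% of all windows held one. The core bound by Meis and Tgif proteins, TGACAG, was searched on both strands. It had no match in the 6 windows searched, against 19.2% of all windows. The joint site of Pbx and Hox proteins, TGATNNAT, had no match either, against 8.85% of all windows. No window of Sall3 was searched, so neither result covers that gene. CpG dinucleotides numbered 15 in the Meis1 window, 13 in that of Meis2 and 18 in that of Sall1, with a median of 7 over all windows. The other 2 Sall1 windows, with 27 and 39 CpG dinucleotides, and the Irx3 window, with 14, had no match to any of the 4 motifs. These matches describe the letters in the windows only.

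The label check came first. Chsy1 had a mean log2 ratio of -4.38 ± 1.39 in knockout forelimbs (SD, n = 13) and 1.73 ± 0.28 in wild-type forelimbs (SD, n = 9), a difference of -6.11 (limma, adjusted p = 1.29e-08). The array labelled knockout 1 stood apart at 0.15, which is 33.6% of the wild-type mean, while the other 12 knockout arrays lay between -5.12 and -4.05. That array is given its label below, and values without it are added where they matter. Between 27214 and 30599 of 43379 spots per array were well above background in Cy5. Tbx5, the forelimb selector gene, was well above background on all 22 arrays, and so were the hindlimb genes Tbx4, Pitx1 and Isl1. The array wild-type 1 had the lowest wild-type level of 8 of 9 marker lists, down to -1.17 for endothelium relative to the mean of all arrays. Its level of the 3 tested liver and trunk markers was the highest, at 1.02, with knockout 9 close to it at 0.99. Knockout 12 had the lowest knockout level of 7 of the 9 lists.

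No difference between genotypes passed the correction in any of the 6 tested genes. At an adjusted p under 0.05, 0 of 6 were called, against 0.0215% of all tested genes (4 of 18624, all lower in the knockout). At an unadjusted p under 0.05, 1 of 6 was higher in the knockout, namely Sall3, against 1.39% of all tested genes that were higher and 5.34% in either direction. The differences ran from -0.12 for Irx5 and Sall4 to 0.32 for Sall3, with a median of 0.11 over the 6 genes and -0.0072 over all tested genes. In all 6 genes the knockout and wild-type arrays overlapped, and the share of all tested genes that did so was not counted. In whole limbs, a change in the number of cells that make a transcript and a change in the RNA per cell cannot be told apart.

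**Figure D1:**
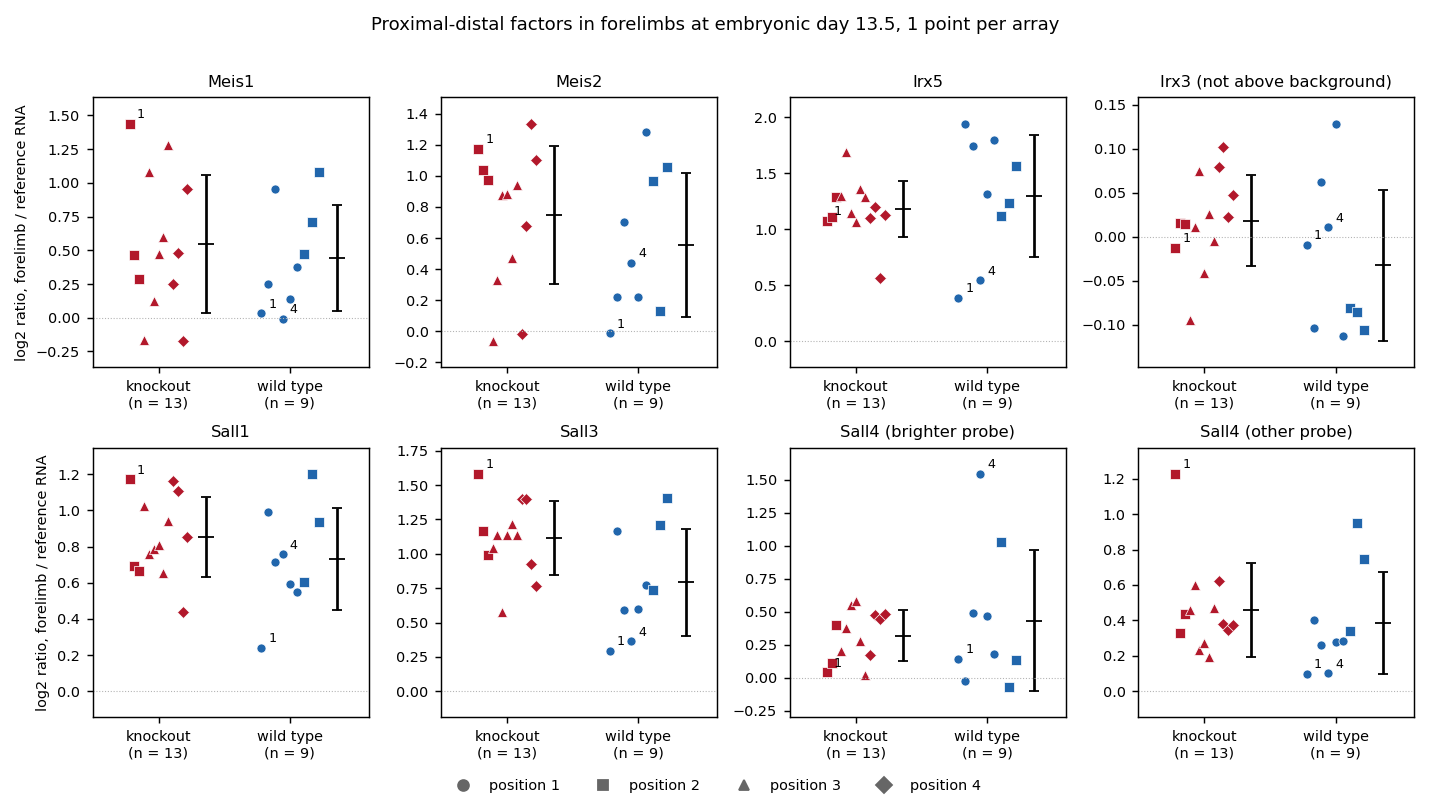
Log2 ratio of forelimb over reference RNA for each gene, 1 point per array, knockout (red, n = 13) left of wild type (blue, n = 9), with the mean and SD as bars and marker shapes for the position of the array on its slide. The groups overlap in every panel; the numbers 1 and 4 mark the arrays labelled knockout 1, wild-type 1 and wild-type 4, and Irx3 was not above background on any array.

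Meis1 (brighter probe at chromosome 11, 18781206 to 18781265, minus strand, mm8 build as in the files) had log2 ratios of -0.17 at the lowest, 0.47 at the median and 1.44 at the highest in knockout forelimbs. In wild-type forelimbs the lowest, median and highest were -0.0075, 0.38 and 1.08. The groups overlapped over nearly their whole range, and the highest of all 22 values belonged to the array labelled knockout 1. Meis1 averaged 0.55 ± 0.51 in knockout forelimbs (n = 13) and 0.44 ± 0.39 in wild-type forelimbs (SD, n = 9). The difference was 0.10, with a 95% interval from -0.29 to 0.49 (limma, p = 0.598, adjusted p = 0.978). Without the array labelled knockout 1 it was 0.027. Among the 6 arrays at the second position of their slide, the only position with both genotypes, it was -0.024, and -0.38 without knockout 1 (p = 0.0834). Meis1 varied widely from array to array: its residual SD was larger than that of 97.1% of all tested genes.

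A second Meis1 probe (chromosome 11, 18911247 to 18911306) was dimmer, with Cy5 well above background on 12 of 13 knockout and 8 of 9 wild-type arrays. It ran from -0.79 to -0.0071 in knockout forelimbs and from -0.66 to 0.028 in wild-type forelimbs, and its difference was -0.066 (interval -0.28 to 0.14). The 2 probes thus gave opposite signs, each within its error. Across the 22 arrays, after each genotype mean was taken off, they moved together with r = 0.70 (adjusted p = 0.00687) and rho = 0.67 (adjusted p = 0.0172, permutation tests). Without the 2 arrays farthest from the median of Meis1, r was 0.59.

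Meis2, named Mrg1 on the array, was measured by 3 probes. The brightest (chromosome 2, 115554771 to 115554830, minus strand, mm8) had log2 ratios of -0.063 at the lowest, 0.88 at the median and 1.34 at the highest in knockout forelimbs. In wild-type forelimbs these were -0.014, 0.44 and 1.28. The knockout median was the higher one, and 10 of 13 knockout arrays lay above the wild-type median, but both groups spanned nearly the same range. Meis2 averaged 0.75 ± 0.44 in knockout forelimbs (n = 13) and 0.56 ± 0.46 in wild-type forelimbs (SD, n = 9). The difference was 0.19, with an interval from -0.19 to 0.57 (limma, p = 0.307, adjusted p = 0.938). Its residual SD was larger than that of 96.3% of all tested genes. The intervals of both Meis genes thus include 0 and differences of either sign. At position 2 of the slides the Meis2 difference was 0.34 (interval from -0.20 to 0.89). Without wild-type 1 and knockout 12 it was 0.070.

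The neighbouring Meis2 probe (chromosome 2, 115554835 to 115554894) gave a difference of 0.12 and followed the brightest one array by array, with r = 0.98 and rho = 0.96 (adjusted p = 0.00055 each, from the smallest p that the permutations can give, 1.0e-05). The third probe (chromosome 2, 115687533 to 115687592) carries the Mrg1 name but no RefSeq accession. It was below the reference in all samples, from -2.69 to -0.42 in knockout forelimbs and from -2.57 to -0.95 in wild-type forelimbs, with a difference of 0.021. Its correlation with the brightest probe was lower, at r = 0.53 (adjusted p = 0.107, permutation test) and rho = 0.49 (adjusted p = 0.106). The 2 neighbouring probes thus repeated each other closely, whereas the third did so only in part. Meis1 and Meis2 themselves had r = 0.32 (adjusted p = 0.328, permutation test) and rho = 0.32 (adjusted p = 0.346).

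Of the Iroquois genes, Irx3 (chromosome 8, 94687988 to 94688047, minus strand, mm8) was not well above background in either dye on any of the 22 arrays, so it has only an upper bound in both genotypes and no fold change. Irx5 (chromosome 8, 95250152 to 95250211, plus strand) was well above background on all 22. Its log2 ratios were 0.57 at the lowest, 1.14 at the median and 1.69 at the highest in knockout forelimbs. In wild-type forelimbs they were 0.39, 1.31 and 1.94. The wild-type values were the more spread ones and enclosed those of the knockout, with arrays wild-type 1 and wild-type 4 well below the other 7. Irx5 averaged 1.18 ± 0.25 in knockout forelimbs (n = 13) and 1.29 ± 0.54 in wild-type forelimbs (SD, n = 9). The difference was -0.12, with an interval from -0.45 to 0.21 (limma, p = 0.476, adjusted p = 0.966). Without wild-type 1 the difference was -0.23 (p = 0.121). With arrays centred on their medians in place of loess it was 0.048, which is -0.19 relative to the median of all genes under that setting. Only 2 of 13 knockout arrays lay above the wild-type median.

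Sall3, a distal factor, had the largest difference of the 6 genes in the fit over all arrays. With median centring, that of Meis2 was larger. With position as a block and within position 2, those of Meis2, Sall4 (-0.18) and Irx5 (-0.15) were larger in size than the 0.13 of Sall3. Its brighter probe (chromosome 18, 81130664 to 81130723, minus strand, mm8) had log2 ratios of 0.57 at the lowest, 1.14 at the median and 1.58 at the highest in knockout forelimbs, against 0.30, 0.73 and 1.41 in wild-type forelimbs. All but 1 of the 13 knockout arrays lay above the wild-type median, although the groups overlapped. Sall3 averaged 1.11 ± 0.27 in knockout forelimbs (n = 13) and 0.79 ± 0.39 in wild-type forelimbs (SD, n = 9). The difference of 0.32, a ratio of 1.25 with a 95% interval from 1.03 to 1.51, had an unadjusted p of 0.0226 and an adjusted p of 0.918 (limma). It ranked 425th of 18624 by p and did not pass the correction. Without the array labelled knockout 1 the difference was 0.28 (p = 0.0395), without wild-type 1 it was 0.26 (p = 0.057), and without wild-type 1 and knockout 12 it was 0.27 (p = 0.0504).

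Genotype and position on the slide were not balanced, so Sall3 is also given by position. Each of the 6 slides held both genotypes, and Sall3 was higher in the knockout on 5 of 6 slides, with differences from -0.25 to 0.80. No knockout array and 6 wild-type arrays were at position 1, 3 arrays of each genotype at position 2, and 6 and 4 knockout arrays at positions 3 and 4. The knockout arrays averaged 1.25 at position 2, 1.04 at position 3 and 1.12 at position 4. The wild-type arrays averaged 0.63 at position 1 and 1.12 at position 2. Within position 2 the Sall3 difference was 0.13 (interval from -0.36 to 0.62), and without the array labelled knockout 1 it was -0.039. That interval holds both 0 and the overall difference of 0.32. The part of position in the Sall3 difference was not tested. The second Sall3 probe (chromosome 18, 81128456 to 81128515) was well above background on 9 knockout and 8 wild-type arrays, with ratios near 0 and a difference of -0.037 (interval from -0.14 to 0.070). The 2 Sall3 probes had r = 0.21 (adjusted p = 0.519, permutation test) and rho = 0.16 (adjusted p = 0.671) over the 22 arrays, so the second did not repeat the first. The mean of both probes gave a difference of 0.14 (p = 0.0765).

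**Figure D2:**
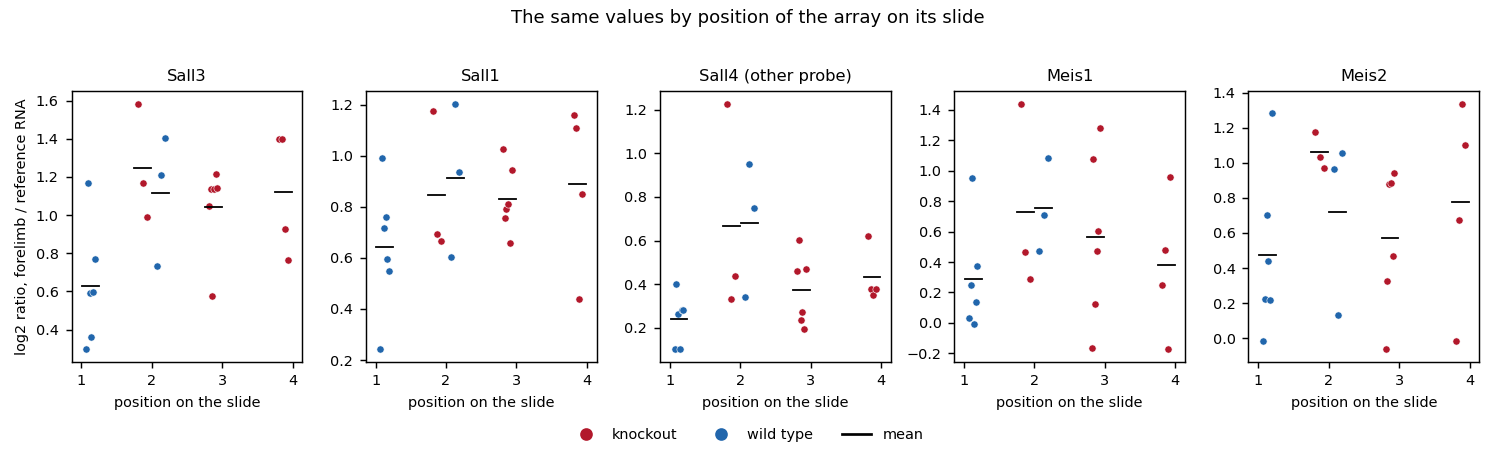
Log2 ratio of forelimb over reference RNA by position of the array on its slide, 1 point per array, knockout in red and wild type in blue, with a line at the mean of each genotype at each position. For Sall3 the knockout arrays average 1.25 and the wild-type arrays 1.12 at position 2, the only position that holds both genotypes, and the 6 wild-type arrays of position 1 average 0.63.

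Sall1 (chromosome 8, 91920260 to 91920319, minus strand, mm8) had log2 ratios of 0.44 at the lowest, 0.81 at the median and 1.17 at the highest in knockout forelimbs, against 0.24, 0.72 and 1.20 in wild-type forelimbs. The groups overlapped, and the lowest value of all was that of wild-type 1. Sall1 averaged 0.85 ± 0.22 in knockout forelimbs (n = 13) and 0.73 ± 0.28 in wild-type forelimbs (SD, n = 9). The difference was 0.12, with an interval from -0.094 to 0.33 (limma, p = 0.259, adjusted p = 0.937). Within position 2 the sign turned, to -0.069. Without wild-type 1 the difference was 0.058.

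Sall4 was read by 2 probes that disagreed. The brighter (chromosome 2, 168443877 to 168443936, minus strand, mm8) had log2 ratios of 0.019 at the lowest, 0.37 at the median and 0.58 at the highest in knockout forelimbs, against -0.065, 0.18 and 1.55 in wild-type forelimbs. Wild-type 4, at 1.55, and wild-type 7, at 1.03, lay above every knockout array, and the other 7 wild-type arrays lay within or just below the knockout range. Its mean was 0.32 ± 0.19 in knockout forelimbs (n = 13) and 0.43 ± 0.54 in wild-type forelimbs (SD, n = 9). The difference was -0.12, with an interval from -0.43 to 0.20 (limma, p = 0.452, adjusted p = 0.962). Without wild-type 4 the sign turned, to 0.024. Median centring gave 0.10, or -0.14 relative to the median of all genes.

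The other Sall4 probe (chromosome 2, 168440038 to 168440097) was well above background in Cy5 on all 22 arrays and in Cy3 on none, so its ratios rest on a reference signal near background. It ran from 0.19 through a median of 0.38 to 1.23 in knockout forelimbs, against 0.10, 0.28 and 0.95 in wild-type forelimbs, with the array labelled knockout 1 at the top. The difference was 0.072 (interval from -0.16 to 0.30). Between the 2 Sall4 probes, r over the 22 arrays was -0.48 (adjusted p = 0.116, permutation test) and rho was -0.51 (adjusted p = 0.106). Which of the 2 probes reads Sall4 transcripts could not be settled from the files, so both are given below as probes and not as the gene. Arrays with much signal on the one tended to have little on the other, which did not pass the correction.

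The genes' deviations from their genotype means were compared over all 55 pairs of the 11 probes above background, with permutation p-values adjusted over the pairs. Of these, 6 pairs had an adjusted p under 0.05 for r, all positive. Besides the probe pairs within Meis1 and within Meis2, 3 of them joined probes of Sall genes, and 2 of these 3 rest on the dimmer Sall4 probe. Sall3 and the dimmer Sall4 probe had r = 0.74 (adjusted p = 0.0033) and rho = 0.70 (adjusted p = 0.0172). Sall1 and the dimmer Sall4 probe had r = 0.69 (adjusted p = 0.00687) and rho = 0.68 (adjusted p = 0.0172). Sall1 and Sall3 had r = 0.69 (adjusted p = 0.0101), while rho = 0.57 did not pass (adjusted p = 0.0819). Forelimb samples with more Sall3 signal thus tended to have more Sall1 signal and more signal on the dimmer Sall4 probe, in both genotypes. For Sall3 with that probe r was 0.61 in knockout forelimbs and 0.88 in wild-type forelimbs. The share of passing pairs among all probes of the array was not counted. Among all named genes, r over 0.8 was reached by 44 with Sall1, 20 with Sall3 and 9 with the dimmer Sall4 probe. Correlations of this size are thus not particular to these pairs.

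These relations were checked against single arrays and positions. Leaving out the 2 arrays farthest from the median of the gene named first gave r = 0.71 for Sall3 with the dimmer Sall4 probe, 0.57 for Sall1 with it and 0.59 for Sall1 with Sall3. At positions 1, 2 and 3, of 6 arrays each, r was 0.95, 0.83 and 0.29 for Sall3 with the dimmer Sall4 probe. For Sall1 with that probe the same positions gave 0.63, 0.93 and 0.47. For Sall1 with Sall3 they gave 0.70, 0.86 and -0.052, so that pair did not hold among the 6 knockout arrays of position 3. A slide held only 3 or 4 arrays, too few for a value of its own.

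The sixth pair also rests on that probe. Meis1 and the dimmer Sall4 probe had r = 0.58 (adjusted p = 0.0345, permutation test), with rho = 0.49 (adjusted p = 0.106), and without the 2 farthest arrays, knockout 1 and knockout 9, r was 0.45. Meis2 had no such partner, since its r with Sall1, Sall3 and the dimmer Sall4 probe was -0.24, 0.0021 and 0.037. Of the 6 pairs that passed, 0 were negative. The array labelled knockout 1 had the highest knockout value of Meis1, Sall1, Sall3 and the dimmer Sall4 probe. Wild-type 1 had the lowest wild-type value of Meis2, Irx5, Sall1, Sall3 and the dimmer Sall4 probe. The low marker lists of that array are given above, and their part in these values was not tested. Without wild-type 1 and knockout 1, r with the dimmer Sall4 probe was 0.70 for Sall3, 0.65 for Sall1 and 0.40 for Meis1. For Sall1 with Sall3 it was then 0.59.

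**Figure D3:**
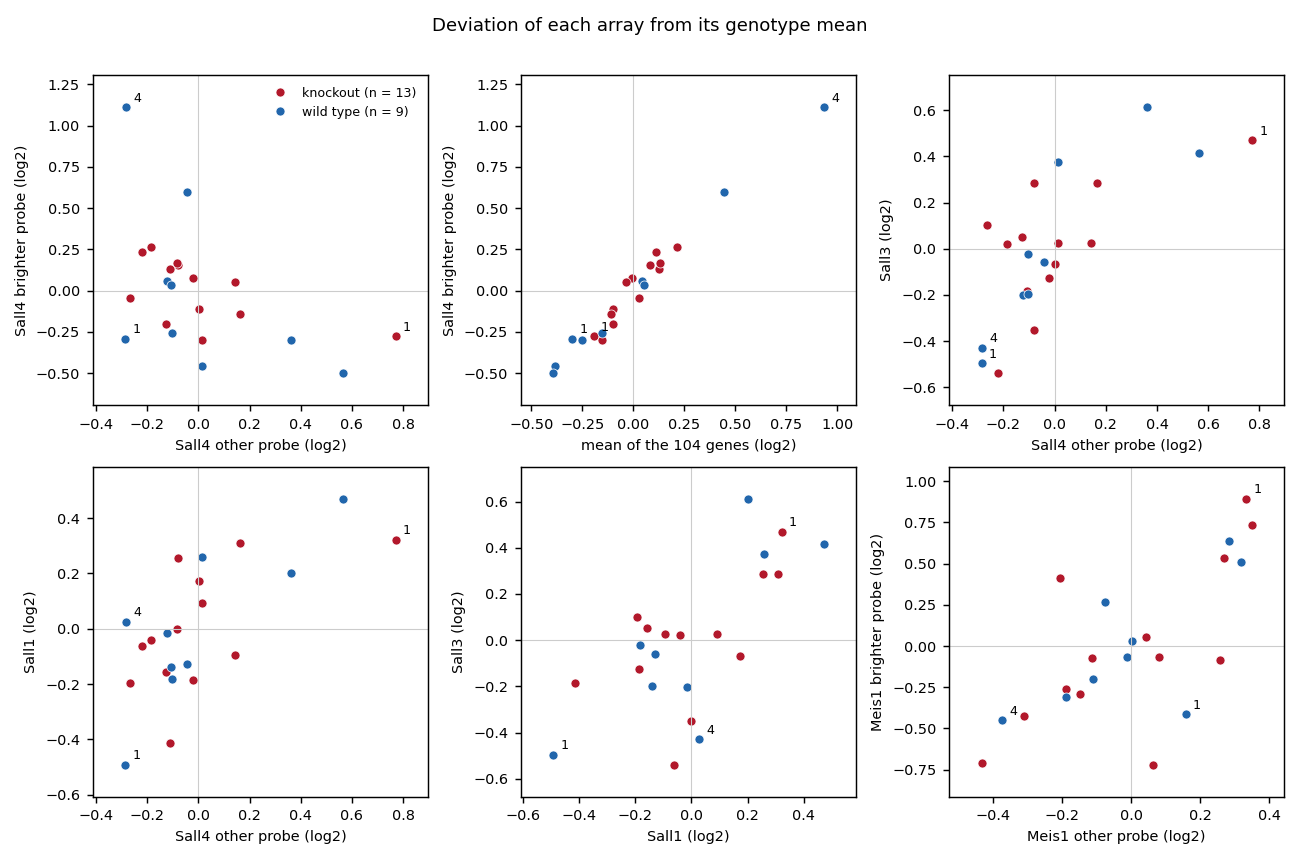
Deviation of each array from its genotype mean in log2 ratio, 1 point per array, knockout in red (n = 13) and wild type in blue (n = 9), for 6 pairs of probes or gene sets. The dimmer Sall4 probe rises with Sall3 (r = 0.74) and Sall1 (r = 0.69). The panel with the mean of 104 genes shows genes picked for following the brighter Sall4 probe, so its slope is given by that choice.

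For each gene, the named genes with the most similar deviations over the 22 arrays were looked up. Meis1 was followed most closely by Gfi1b, Snhg11 and Got1, with r from 0.80 to 0.81. Meis2 was followed by Psd2, Tubgcp5 and Dync1li2, with r from 0.71 to 0.80. No named gene reached r over 0.9 with either Meis gene.

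Irx5 was followed by Nsd1 (r = 0.92), C1ql3 and Phactr2 (r = 0.91 each). Sall1 was followed by Artn (r = 0.90), Zfp105 (r = 0.88) and Btnl9 (r = 0.87). Sall3 was followed by Hmga1 (r = 0.90), H2ax and Dna2 (r = 0.86 each). Hmga1 encodes a chromatin protein, H2ax a histone variant and Dna2 a helicase-nuclease of DNA replication. Without wild-type 1 the r of these 9 genes lay between 0.84 and 0.89.

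The brighter Sall4 probe had more such genes. Its closest genes were Dlgap2 (r = 0.98), AF067063 (r = 0.97) and Olfr279 (r = 0.97), and 104 named genes passed r over 0.9, against 0 to 3 for the other 5 tested genes. Of these 104, 13 had symbols of olfactory or vomeronasal receptors, which is 12.5%, against 281 of 16149 named genes, or 1.74%. Such receptors are known from sensory neurons of the nose. The mean of the 104 genes was 0.93 above the wild-type mean on wild-type 4 and 0.45 above it on wild-type 7. The brighter Sall4 probe was highest on these same arrays, and how many genes pass without them was not tested. Since the 104 genes were picked for their correlation with this probe, that their mean follows it is given by the choice and is no finding. The dimmer Sall4 probe, looked up after its values were seen, was followed by Calb2 (r = 0.87), Lin28b (r = 0.85) and Kdm8 (r = 0.84), and no gene passed 0.9. Lin28b encodes an RNA-binding protein of early embryonic and stem cells.

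The partners and relatives of these factors were read from lists. Over all 18624 tested genes and probes, 8688 had a higher and 9936 a lower mean in knockout forelimbs. Of 10 genes listed as TALE partners of Meis, 7 had a higher and 3 a lower mean in knockout forelimbs. Their median difference was 0.058, and 0 passed the test. Of the Pbx genes, whose proteins join Meis proteins on DNA, Pbx2 differed by 0.065 (interval from -0.092 to 0.22), Pbx3 by -0.087 and Pbx4 by 0.024, with -0.069 on the second Pbx4 probe. Pbxip1, which is on this list as a gene for a Pbx-binding protein and is no TALE gene itself, differed by 0.095.

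Among the remaining TALE genes, Pknox2 differed by 0.20 (interval from -0.049 to 0.44), with -0.0056 on its second probe, and Pknox1 by -0.056. Tgif1 and Tgif2, repressors that recognise the Meis core, differed by 0.19 (interval from -0.044 to 0.43) and 0.050. Meis3 differed by -0.041. Every interval of the 9 genes named from the TALE partner list included 0, and the limma adjusted p of each was 0.924 or higher.

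Of the 6 genes listed as other Irx and Sall genes, which include Mkx, 2 had a higher and 4 a lower mean. Their median difference was -0.025, with 0 passing. Sall2 averaged 2.84 ± 0.12 in knockout forelimbs (n = 13) and 2.64 ± 0.29 in wild-type forelimbs (SD, n = 9). Its difference of 0.20, with an interval from 0.024 to 0.38, did not pass the correction (limma, p = 0.028, adjusted p = 0.918). Sall2 was not looked up by position or without single arrays, and genotype and position were not balanced. Irx6 differed by -0.20 (interval from -0.49 to 0.087). Irx1 differed by -0.048, Irx2 by -0.031, Irx4 by -0.018 and Mkx by 0.0049, and other probes had the opposite sign for Irx1, at 0.14, and for Irx2, at 0.041. Irx1, Irx2, Irx4 and Irx6 all passed the filter on dim probes that Irx3 did not.

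**Figure D4:**
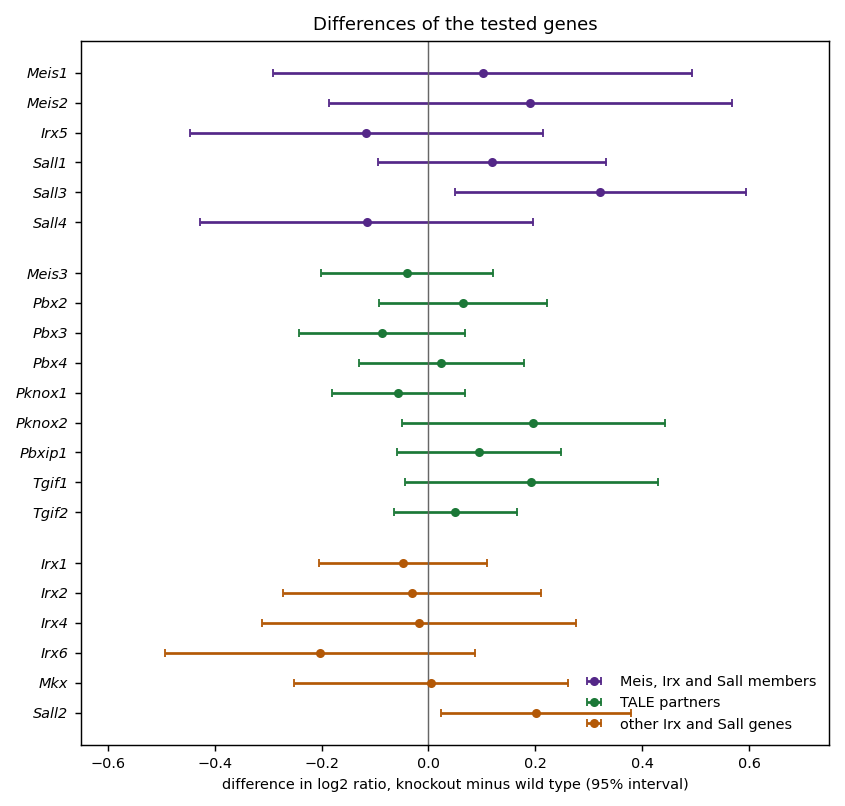
Difference in log2 ratio, knockout minus wild type, with its 95% interval. Shown are the 6 tested factors, 9 genes of the TALE partner list and the 6 genes listed with Irx and Sall, Mkx among them. All intervals include 0 except those of Sall3 and Sall2, which lie above 0 and did not pass the correction.

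The lists of signalling genes and of other limb patterning factors showed 0 calls as well. Of 17 tested retinoid signalling genes, 7 were higher and 10 lower in the knockout, with a median difference of -0.047. The smallest p was that of Crabp1, which binds retinoic acid in the cytoplasm, with 0.24 ± 0.21 in knockout forelimbs and 0.48 ± 0.32 in wild-type forelimbs (difference -0.24, limma p = 0.037, adjusted p = 0.918). Of 14 segment and distal factors, among them the posterior Hox genes, 11 were higher and 3 lower, with a median of 0.14. Their smallest p was that of Lhx9, a distal LIM homeodomain gene, at a difference of 0.25 (limma p = 0.13, adjusted p = 0.924).

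Of 13 tested ridge and FGF genes, 7 were higher and 6 lower, with a median of 0.011, and the smallest p was that of the FGF antagonist Spry1 (difference 0.17, limma p = 0.0661, adjusted p = 0.918). Of 14 tested hedgehog and anterior-posterior factors, 9 were higher and 5 lower, with a median of 0.068. Alx1, an anterior homeodomain gene, had the smallest p there (difference 0.29, limma p = 0.0735, adjusted p = 0.918).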

How the data were processed

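Forelimb RNA of 22 samples was measured on 2-colour Agilent arrays. Per the file headers, the deposited spot intensities came from Feature Extraction 9.5.3.1 (version 9.5 in the submitters' processing notes). The deposited log10 ratios of Cy5 over Cy3 equal the series' value table, whose column medians are 0, and were used as an alternative only.

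From the deposited intensities, background was corrected with normexp (offset 50) and log2 ratios were normalised by loess within arrays. Control and outlier spots were left out and spots of a probe averaged. Of 41174 probes, the 27803 with Cy5 signal well above background on 9 or more arrays were tested, and the brightest tested probe stood for a gene. Names were updated through RefSeq's GRCm38.p6 table. Median background was 54 to 57 units and the median Cy5 signal 102.8 to 178.9. No spot was saturated, all arrays were scanned on 1 day, and the number of arrays limits the precision.

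Differences came from limma 3.58.1 (R 4.3.3) on all 22 arrays without covariates, with Benjamini-Hochberg adjustment over 18624 genes and unnamed probes at 0.05 and 95% intervals. The fit was tested on simulated data. A fit keeps an array whose spot was left out as missing for that probe (26 values in all). Correlations used 1e+05 two-sided permutations in Python 3.11.15.

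The genes and the lists were chosen with earlier results of these data known. Named were Chsy1, the 7 genes, their TALE partners (1 of which is not reported here) and relatives, the gene with the smallest p of each other list (or up to 4 called genes), and the 3 genes most correlated with each. Alternatives covered background, normalisation, filters, probes, weights for arrays, the variance model, each array left out in turn, and blocks for slide, position and replicate number. Fits within position 2 without knockout 1 and on other probes of a gene, and the look-up of the dimmer Sall4 probe, were added after seeing the data.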

Additional observations from a re-analysis of the deposited data

How the results depend on the processing

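In none of the settings tried did a member pass the adjusted threshold, and Meis2 kept its sign in all of its 41 settings, from 0.021 to 0.54. These settings reuse the same arrays. By slide, Meis2 was higher in the knockout on 4 of 6 slides, with differences from -0.51 to 0.61. Centring each array on its median, without loess, put the all-gene median difference at 0.24. It turned Irx5 to 0.048 and Sall4 to 0.10, which are -0.19 and -0.14 relative to that shift. Position as a block, which rests on position 2, gave -0.024 for Meis1 and -0.069 for Sall1, as did position 2 alone. Position 2 without knockout 1 gave -0.38 for Meis1, -0.23 for Sall1 and -0.039 for Sall3. Other probes gave -0.066 for Meis1, -0.037 for Sall3 and 0.072 for Sall4. The cause of these changes was not tested. Meis2 exceeded Sall3 with median centring (0.54 against 0.49) and at position 2 (0.34 against 0.13). At position 2, Sall4 (-0.18) and Irx5 (-0.15) also exceeded Sall3 in size. Without wild-type 1 and knockout 12, Meis2 was 0.070 and Sall3 0.27, and the mean of its probes put Sall3 at 0.14. Leaving out 1 array gave 0.027 to 0.18 for Meis1, 0.12 to 0.28 for Meis2, -0.23 to -0.035 for Irx5 and 0.058 to 0.18 for Sall1. The range was 0.26 to 0.40 for Sall3, with an unadjusted limma p under 0.05 in 20 of 22 cases, and -0.18 to 0.024 for Sall4, whose sign turned without wild-type 4. Genotypes share replicate numbers 1 to 9, which were not taken as pairs in the main fit. Correlations of same-numbered arrays ran from -0.31 to 0.49, 3 of 9 were over 0.1, and 1 knockout array correlated best with its own number. These values cannot show whether same-numbered samples belonged together. With the replicate number as a block over 18 arrays, the differences were 0.18 for Meis1, 0.18 for Meis2, -0.036 for Irx5, 0.10 for Sall1, 0.32 for Sall3 and -0.15 for Sall4, and 0 members were called. The count of all called genes, 4 here, was 6 without background correction, 8 with array weights, and 1 with median centring, with the deposited log ratio and with slide, position or replicate number as a block. Signal near background limits Irx3, the second Sall3 probe and the Cy3 side of the dimmer Sall4 probe.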
